A study of Mus musculus with 7 samples.

Results

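Pdgfra-lo CD81+ cells of the mouse intestinal mesenchyme were compared 4 days after the tumour suppressor Apc had been inactivated in the neighbouring epithelium with the same cell population from wildtype controls. Every library labelled as wildtype (3) or as day 4 Apc knockout (2) entered the comparison, which is 5 of the 7 libraries sequenced. Of 24908 gene symbols in the deposited table, 11735 had at least 1 FPKM (a level per transcript length and per mapped fragment) in at least 2 of the 7 libraries and were tested. Of these, 47 rose and 73 fell at day 4. The genes that rose included Alpl, Serpina3m, Serpina3n, Cxcl13 and Il11 and 3 EGF family ligands, and the genes that fell included matrix and guidance genes and the trophocyte genes Cd34 and Wnt2b.

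Pdgfra-lo CD81+ cells, also called trophocytes, are fibroblasts that lie beneath the intestinal crypts and are known for supplying the stem cells with R-spondins, WNT ligands and the BMP antagonist Grem1. Apc belongs to the complex that marks beta-catenin for degradation, so that its loss switches on WNT target genes in the cells that lack it without any need for a ligand. Fibroblasts near damaged or transformed epithelium can make EGF receptor ligands, cytokines and matrix proteins, which act on the epithelium and on immune cells.

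The knockout mice carried floxed Apc alleles (Apcflox/flox) and the Villin-CreERT2 driver, whose Villin promoter is active in the intestinal epithelium, so the sorted cells themselves were not the target of the deletion. Cells were taken 4 days (n = 2 libraries) or 6 days (n = 2) after inactivation, and the wildtype group (n = 3) has no treatment label. The strain, age and sex of the mice, the part of the intestine, the inducing agent and whether the wildtype mice carried Cre or floxed alleles are not given in the sources used here. Messenger RNA was captured with poly-T beads and the libraries were sequenced on an Illumina platform. Column names carry GFP_Low, and by the day written in them 1 control shares a day 4 set with the day 4 knockouts, while the other 2 controls belong to a day 6 set. Whether each library is a separate animal is not stated, and the p-values therefore reflect the spread among these samples, which may be technical. Below, control values are given in the order day 4 set, first and second day 6 set, and day 4 values in the order replicate 1, replicate 2. Log2 changes are day 4 minus wildtype and are given ± their standard error (SE) in the model.

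The libraries differed in several ways that genotype does not define. Relative depth against the day 4 set control was 0.747 and 0.824 for the day 4 knockouts, a rough estimate from the lowest FPKM values, and absolute depth is unknown. Gapdh was 193, 91.4 and 77.3 FPKM in the controls and 215 and 277 FPKM at day 4, so the day 4 set was the higher one with or without the knockout. The Y-linked gene Ddx3y was 39.9 FPKM in the first control of the day 6 set and 0.182 FPKM in the second, and was listed at 0 in the other libraries compared. Xist, which is transcribed in female cells, was 3.48, 0 and 3.02 FPKM in the controls and 4.43 and 6.99 FPKM at day 4. By these genes the first day 6 set control differed in sex from the other libraries compared, so sex was not balanced between the groups. Col1a1, Col1a2 and Dcn, at high FPKM in every other library, were listed at 0 in the day 4 set control. Col3a1 was listed at 0 there and in 1 day 6 knockout library. Such zeros can be failed estimates. These 4 genes stayed in the test across all genes, and the medians of the lists that hold them are also given without them, a step added after the data had been seen.

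The sort markers and the deleted gene were examined first. Apc was at 2.63, 2.69 and 2.46 FPKM in the controls and 2.22 and 2.54 FPKM at day 4. These values overlap, and because the deletion was in epithelial cells they do not check the knockout. Pdgfra was at 61.3, 54.3 and 59.9 FPKM in the controls and 76.5 and 134 FPKM at day 4, with both day 4 libraries above the controls but no call (log2 change 0.78 ± 0.25, adjusted p = 0.166). For Cd81 the values were 109.8, 149 and 142 FPKM in the controls and 94.8 and 32.4 FPKM at day 4. Day 4 replicate 2 had the lowest Cd81 of the 7 libraries, and the difference did not pass (log2 change -1.24 ± 0.43, adjusted p = 0.189).

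Day 4 replicate 2 also held the least signal from immune cells. The mean of log2(FPKM + 1) over 16 macrophage and dendritic cell markers was 1.17 in that library, 3.93 in day 4 replicate 1 and 2.66 to 3.14 in the controls. The pan-leukocyte gene Ptprc followed the same order, at 8.47 and 0.532 FPKM at day 4 and 6.24, 4.11 and 3.42 FPKM in the controls. Over 7 B and plasma cell markers the mean was 5.80 and 2.21 at day 4 and 3.73 to 4.84 in the controls, so the day 4 libraries lay on either side of all controls. Among the 5 libraries compared, blood endothelial markers (12 genes) were highest at day 4, with means of 2.26 and 2.56. The day 4 set control was close to replicate 1, at 2.21, and the day 6 set controls were at 1.88 and 1.81. Day 6 knockouts were at 1.98 and 2.29. Paneth cell and antimicrobial genes (10 genes) were low in both day 4 libraries (0.389 and 0.503) and in the first day 6 set control (0.429), and higher in the other 2 controls (1.67 and 1.90). Epithelial markers (13 genes) were low throughout, at 0.486 to 0.739 in these 5 libraries. None of these lists had a called member (1.02% of all genes were called). In bulk samples such as these, fewer cells of a type and less RNA per cell cannot be told apart.

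**Figure D1:**
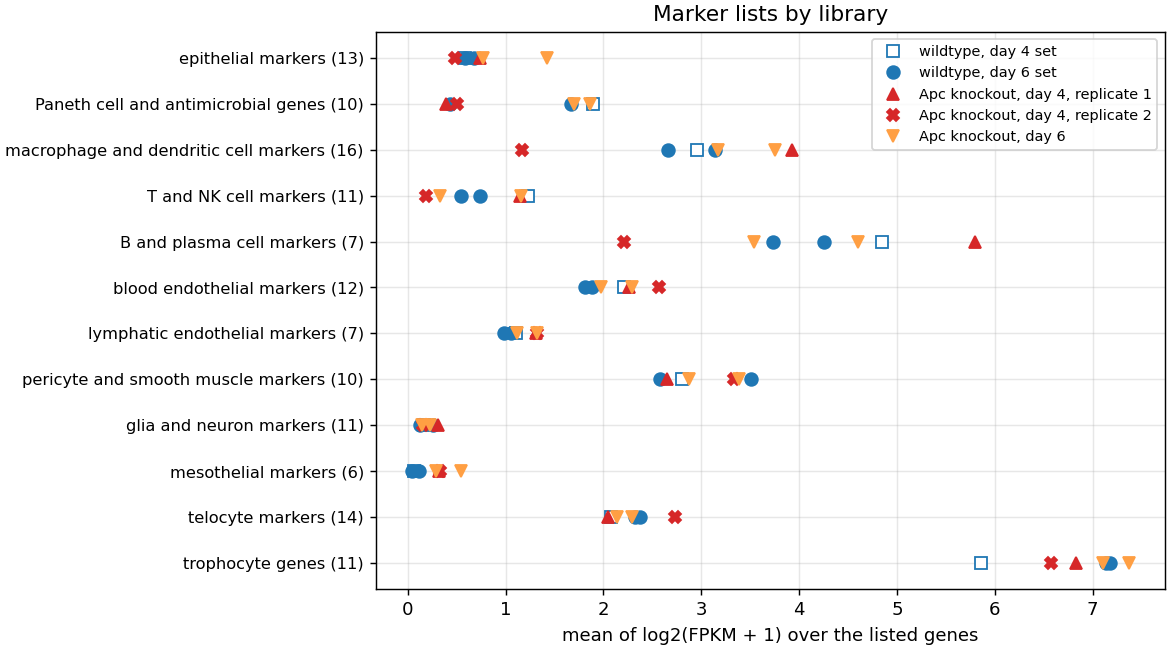
Mean of log2(FPKM + 1) over the genes of 12 cell type lists (x axis) in each of the 7 libraries (symbols), with the number of genes in brackets. Day 4 replicate 2 (red cross) lies far to the left for macrophage and B cell markers and lowest for T and NK cell markers, and the day 4 set control (open square) lies to the left for trophocyte genes, where Dcn is listed at 0.

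Across all 11735 genes, limma on log2(FPKM + 1) called 120 genes at an adjusted p (Benjamini-Hochberg) under 0.05, or 1.02% of those tested, and 109 of them differed by at least 2-fold. The 47 genes that rose (0.401%) changed by log2 0.83 to 4.25, with a median of 1.69, and 20 of them by at least 4-fold. The 73 that fell (0.622%) did so by log2 0.86 to 2.79, with a median of 1.52, and 7 of them by at least 4-fold. Genes that fell were the more abundant in wildtype cells, with a median control mean of 26.8 FPKM against 5.52 FPKM for the genes that rose. The scale of log2(FPKM + 1) understates the change of genes near 1 FPKM. It also leaves genes near 0 FPKM little room to fall, and the difference in abundance cannot be told apart from this limit. An unadjusted p under 0.05 was found for 2177 genes, and the median log2 change of all genes was -0.06. Both day 4 libraries lay above all 3 controls for 12.5% of all genes and below them for 22%. Called genes can hardly overlap between groups with so few libraries, so a lack of overlap given below adds nothing to a call. Spp1, Hspb7, Mmp8, Adamts9, Pla1a and Cpne7, named below, reached 1 FPKM in fewer than 2 controls. They passed the filter only through knockout libraries, so they could enter the test only as genes high in the knockouts.

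**Figure D2:**
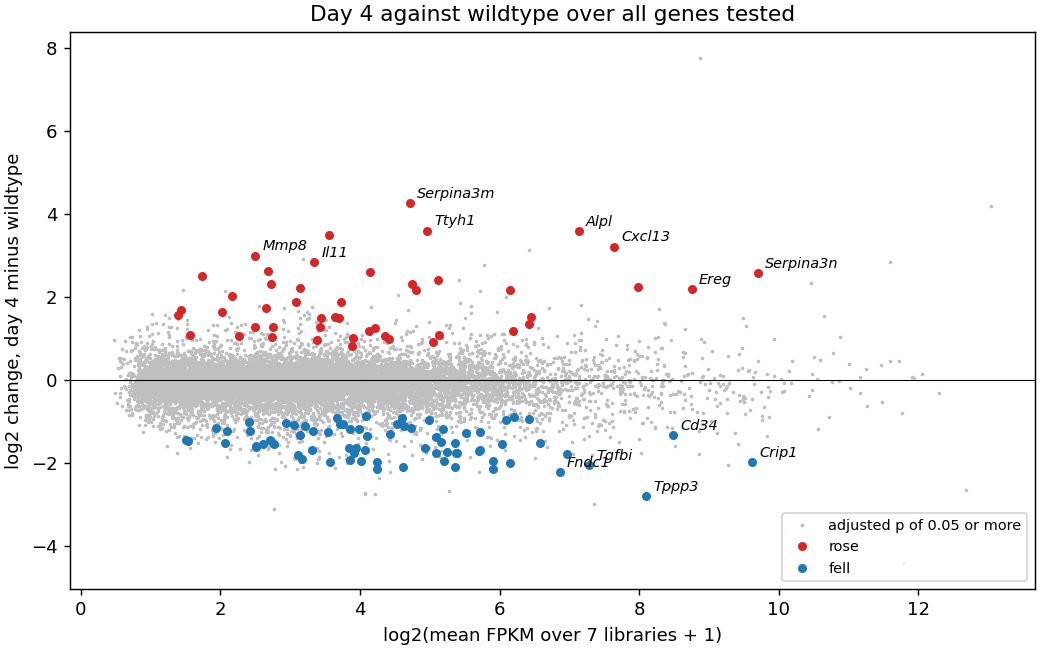
Log2 change from wildtype to day 4 (y axis) against log2(mean FPKM over 7 libraries + 1) (x axis) for the 11735 genes tested, with the 47 genes that rose in red and the 73 that fell in blue. Grey points with large changes missed the threshold, and the grey point near a change of 4.18 at the far right is Dcn, listed at 0 in the day 4 set control.

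The number of calls rested on single libraries. Leaving out the second day 6 set control left 2 (Alpl and Ttyh1), leaving out the first left 6 (those 2 with Areg, Il11, Rgs2 and Serpina3m) and without the day 4 set control there were 474. Without day 4 replicate 2 it was 9 (Alpl, Angptl2, Apod, Cxcl13, Itga11, Pla1a, Rgs2, Serpina3m and Ttyh1), and without day 4 replicate 1 it was 98, of which 39 were among the 120. Leaving out day 6 knockout replicate 1 gave 68 and replicate 2 gave 70, since these libraries add to the estimate of the spread. Alpl and Ttyh1 were the only calls kept in all 7 refits, so every other call named here was lost in at least 1 of them, while all 120 genes kept their direction in each.

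The control of the day 4 set was also used alone, because it shares its set with the knockouts. All 120 genes kept their direction, and both day 4 libraries lay above this control for all 47 genes that rose and below it for all 73 that fell. The genes had been called with this control and the same day 4 libraries, which largely fixes these counts. The median absolute log2 change of the 120 was 1.45 against this control and 1.54 against all 3. With 1 control the test passed 5 genes, of which Alpl was the only one among the 120. The other 4 were Col1a1, Col1a2, Dcn and H2-Q2, a member of the class I gene family with close copies, each at or near 0 in this control (H2-Q2 at 0.269 FPKM).

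**Figure D3:**
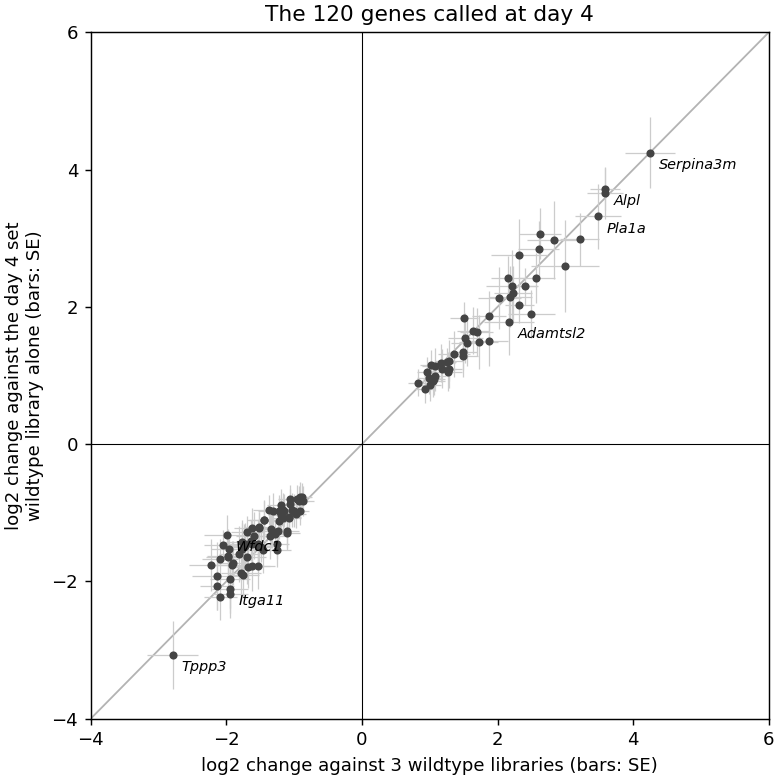
Log2 change of the 120 called genes against the day 4 set control alone (y axis) and against all 3 controls (x axis), with standard errors as bars and the line of equal values in grey. The points stay near the line and in the same quadrant, and the bars are longer on the y axis, where 1 control stands for the group. That control is also among the 3 on the x axis.

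Growth factors that act on the epithelium were among the genes that rose. EGF family ligands are made as membrane-bound precursors and signal through EGF receptor and its relatives, which drive proliferation of crypt cells. Of 11 listed ligands, 6 were expressed enough to test, and Ereg, Areg and Epgn rose (3 of 6, against 0.401% of all genes, median log2 change of the 6 1.89 against -0.06). Ereg, the ligand epiregulin, was at 196, 222 and 159 FPKM in the controls and 658 and 1157 FPKM at day 4 (log2 change 2.19 ± 0.32, adjusted p = 0.0373). Even the lower day 4 value was well above the highest control, and replicate 2 was the higher of the pair.

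Areg, which encodes amphiregulin, was at 9.35, 15.6 and 10.3 FPKM in the controls and 55.3 and 53.9 FPKM at day 4 (log2 change 2.16 ± 0.25, adjusted p = 0.0274). The day 4 libraries were nearly equal and did not overlap the controls. Epgn, encoding epigen, was much less abundant, at 1.04, 0.919 and 1.70 FPKM in the controls and 5.20 and 11.9 FPKM at day 4 (log2 change 2.03 ± 0.32, adjusted p = 0.0441). Nrg1, a ligand of the related receptors ERBB3 and ERBB4, was at 1.59, 5.43 and 6.06 FPKM in the controls and 8.89 and 26.9 FPKM at day 4. Both day 4 values were above the controls, but replicate 2 was far above replicate 1 and the difference did not pass (log2 change 1.76 ± 0.53, adjusted p = 0.151). Nrg1 is also on the list of telocyte markers, genes of the Pdgfra-high neighbours of these cells. The median of that list was -0.10 and 0.66 with replicates 1 and 2 alone, and the part of such cells was not tested. Btc was at 5.26, 3.18 and 5.26 FPKM and 5.57 and 13.8 FPKM (adjusted p = 0.280), and Hbegf at 6.77, 13.9 and 5.49 FPKM and 12.3 and 3.03 FPKM, where the groups overlapped (adjusted p = 0.801). The median of the 6 ligands was 1.25 with replicate 1 alone and 2.32 with replicate 2 alone, and it was 2.14 against the day 4 set control.

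In the RefSeq annotation (GRCm38.p6) Epgn, Ereg, Areg and Btc follow each other on chromosome 5 with 0 protein-coding genes between neighbours. RefSeq promoter windows, 250 bases before to 50 after each start site, were found for 34 of the 47 genes that rose and 56 of the 73 that fell. The windows of Areg, Epgn, the chemokine gene Cxcl13 and the acute phase gene Serpina3n are shown because these genes rose together, with matches to the searched motifs in capitals (on GRCm38.p6, all on the plus strand). Areg, chr5:91139349-91139648, holds TGACGTCA from base -61 and TATAAA from base -31, counted from the start site.
Areg: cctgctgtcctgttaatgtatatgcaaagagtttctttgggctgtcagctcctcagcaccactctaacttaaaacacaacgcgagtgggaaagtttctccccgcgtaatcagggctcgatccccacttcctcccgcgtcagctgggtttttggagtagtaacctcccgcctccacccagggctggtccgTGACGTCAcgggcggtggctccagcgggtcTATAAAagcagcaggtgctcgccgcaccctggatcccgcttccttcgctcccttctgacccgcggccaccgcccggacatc
Epgn, chr5:91027267-91027566, holds TATAAA from base -86.
Epgn: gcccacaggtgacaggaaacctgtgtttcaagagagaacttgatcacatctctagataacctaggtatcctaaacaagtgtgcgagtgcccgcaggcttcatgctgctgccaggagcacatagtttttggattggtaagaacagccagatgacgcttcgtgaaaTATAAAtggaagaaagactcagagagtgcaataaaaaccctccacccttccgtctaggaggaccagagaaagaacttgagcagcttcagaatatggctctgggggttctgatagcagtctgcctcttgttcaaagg
Cxcl13, chr5:95956689-95956988, holds TATAAA from base -46.
Cxcl13: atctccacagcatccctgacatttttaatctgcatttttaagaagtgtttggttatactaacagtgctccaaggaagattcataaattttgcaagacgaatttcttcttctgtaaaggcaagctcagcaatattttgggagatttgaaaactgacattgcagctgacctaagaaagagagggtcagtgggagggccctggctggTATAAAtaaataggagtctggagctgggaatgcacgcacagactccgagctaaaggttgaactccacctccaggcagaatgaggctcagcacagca
Serpina3n, chr12:104406458-104406757, holds no match to the motifs searched.
Serpina3n: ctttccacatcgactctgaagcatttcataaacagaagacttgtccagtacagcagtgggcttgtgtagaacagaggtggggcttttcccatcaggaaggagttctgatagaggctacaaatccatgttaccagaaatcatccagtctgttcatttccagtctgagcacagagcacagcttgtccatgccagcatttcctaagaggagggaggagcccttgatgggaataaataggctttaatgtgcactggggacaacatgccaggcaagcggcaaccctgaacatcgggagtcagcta
Motifs were searched on both strands and could overlap, and CRE and TATAAA were added to the search after sequences had been seen. TATAAA was found in 23.5% of the windows of genes that rose (8 of 34), 12.5% of those that fell, 7.06% of 9216 windows of all genes tested and 14.2% of all 27025 windows of the reference. The 8 were Adamtsl2, Areg, Cxcl13, Epgn, Itih3, Lrg1, Mmp8 and Spp1. The AP-1 site TGACTCA was in 5.88%, 3.57%, 3.41% and 5.17%, in the same order, the STAT site TTCNNNGAA in 2.94%, 8.93%, 6.96% and 8.47%, the E-box CACGTG in 11.8%, 8.93%, 10.4% and 7.24%, and the CRE TGACGTCA in 2.94%, 1.79%, 3.33% and 1.88%. A match describes the letters in the window and is not a measured binding site.

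Among the listed cytokines and chemokines, Il11 and Cxcl13 rose. Il11, an IL-6 family cytokine that signals through gp130, was at 1.16, 3.25 and 0.477 FPKM in the controls and 15.5 and 16.6 FPKM at day 4 (log2 change 2.84 ± 0.40, adjusted p = 0.0342). It was the only called gene of 17 tested members of its list (1.02% of all genes were called), whose median was -0.01. Of the 17, 5 lay above all controls and 5 below them (12.5% and 22% of all genes did). Cxcl13, the chemokine that attracts B cells and organises lymphoid follicles, was at 60.9, 50.7 and 45.1 FPKM in the controls and 362 and 658 FPKM at day 4 (log2 change 3.21 ± 0.29, adjusted p = 0.0103). Both day 4 values lay far above the controls, and which cells made it was not tested.

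Of 21 tested chemokines and atypical receptors Cxcl13 was the only call (1.02% of all genes were called), and the median was -0.35. The eosinophil attractant Ccl11 was at 398, 593 and 482 FPKM in the controls and 763 and 1850.0 FPKM at day 4 (adjusted p = 0.148), above the controls in both libraries. Cxcl10, an interferon-induced chemokine, was at 506, 637 and 542 FPKM and 198 and 45.2 FPKM (adjusted p = 0.120), below the controls in both. Over 16 tested NF-kappaB feedback and adhesion genes and 25 interferon-stimulated genes there were 0 calls. The NF-kappaB list had a median of -0.31 (-0.22 and -0.53 with replicates 1 and 2 alone). The interferon list had a median of 0.04, between opposite shifts of the 2 day 4 libraries (0.49 and -0.60 with replicates 1 and 2 alone). Immune cell markers differed between the day 4 libraries by more than among the controls, as given above, and their part in these values was not tested.

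Acute phase genes, which cells switch on in inflammation, were mostly higher. Of 13 tested members 12 had a positive log2 change (5058 of 11735 genes did) and 5 lay above all controls in both day 4 libraries (12.5% of all genes did). Of the 13, 2 rose (0.401% of all genes did), and the median was 0.40. The median depended on the library, at 1.14 with replicate 1 alone and 0.54 with replicate 2 alone. Serpina3m was at 1.73, 2.85 and 0.926 FPKM in the controls and 74.3 and 34.8 FPKM at day 4 (log2 change 4.25 ± 0.37, adjusted p = 0.0101), the largest log2 change among the 120. Serpina3n, its neighbour in the RefSeq annotation, was far more abundant, at 279, 254 and 224 FPKM in the controls and 1703 and 1319 FPKM at day 4 (log2 change 2.57 ± 0.27, adjusted p = 0.0186). Both encode antichymotrypsin-like serine protease inhibitors, and neither overlapped between groups.

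The Serpina3 genes are close copies, and the counting step could have split reads between them, so the value of each single gene is uncertain. Serpina3c was at 2.55, 2.37 and 1.07 FPKM in the controls and 16.1 and 4.80 FPKM at day 4 (adjusted p = 0.109), and Serpina3g at 104, 70.2 and 90.3 FPKM and 90.3 and 143 FPKM (adjusted p = 0.493). Saa3, which encodes a serum amyloid, was at 67.7, 9.38 and 17.0 FPKM in the controls and 287 and 142 FPKM at day 4, with the day 4 set control nearest to the knockouts (adjusted p = 0.113). Haptoglobin (Hp) was at 2.86, 0.346 and 0.918 FPKM and 8.02 and 6.35 FPKM (adjusted p = 0.0811), and the iron-siderophore binding lipocalin Lcn2 at 1.90, 0.462 and 0 FPKM and 9.84 and 3.69 FPKM (adjusted p = 0.161). For all 3 the day 4 set control was the highest control, yet below both knockouts. Lrg1, a secreted glycoprotein of the acute phase response, rose from 2.32, 2.50 and 0.943 FPKM to 10.1 and 6.88 FPKM (log2 change 1.72 ± 0.29, adjusted p = 0.0443).

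Enzymes at the cell surface and of lipid and hormone metabolism were among the largest increases. Alpl, tissue-nonspecific alkaline phosphatase, which splits pyrophosphate and dephosphorylates extracellular nucleotides, was at 24.0, 23.2 and 33.2 FPKM in the controls and 296 and 363 FPKM at day 4 (log2 change 3.58 ± 0.23, adjusted p = 0.00384). It had the smallest adjusted p of all genes and stayed past the threshold in 17 of 18 alternative settings, where its adjusted p ranged from 0.00169 to 0.0538. Among 11 tested mineralisation and phosphate genes Spp1 also rose, while Enpp3 fell (0.401% and 0.622% of all genes did). Spp1, which encodes osteopontin, was barely detected in the controls, at 0.0856, 0 and 0.0464 FPKM, and reached 1.64 and 3.32 FPKM at day 4 (log2 change 1.69 ± 0.24, adjusted p = 0.0358). It passed the filter only through knockout libraries. Enpp3, an ectoenzyme that hydrolyses extracellular nucleotides, was at 51.7, 76.9 and 81.9 FPKM and then 22.4 and 19.0 FPKM (log2 change -1.69 ± 0.24, adjusted p = 0.0334).

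Pla1a, a phospholipase specific for phosphatidylserine, was near the limit of the filter in the controls, at 1.17, 0.818 and 0.842 FPKM, and at 12.8 and 33.0 FPKM at day 4 (log2 change 3.48 ± 0.34, adjusted p = 0.0152). Cyp1b1, a cytochrome that oxidises retinoids and steroids, was at 84.8, 96.3 and 70.7 FPKM in the controls and 371 and 417 FPKM at day 4 (log2 change 2.23 ± 0.29, adjusted p = 0.0323). Neither gene overlapped between groups. Of 15 tested lipid and adipogenic genes 3 rose and 1 fell, against 0.401% and 0.622% of all genes. Their median was 0.09 (0.33 and -0.03 with replicates 1 and 2 alone). The lipocalin Apod went from 7.97, 6.20 and 5.04 FPKM to 40.9 and 30.6 FPKM (log2 change 2.32 ± 0.21, adjusted p = 0.0109), and the fatty acid binding protein Fabp4 from 6.68, 5.53 and 3.16 FPKM to 25.8 and 16.5 FPKM (log2 change 1.87 ± 0.29, adjusted p = 0.0424). Plin2, which coats lipid droplets, went from 45.8, 40.4 and 54.2 FPKM to 101 and 181 FPKM (log2 change 1.52 ± 0.26, adjusted p = 0.0443). The member that fell was Zfp423, a transcription factor of preadipocytes, from 6.87, 5.66 and 9.48 FPKM to 2.10 and 1.57 FPKM (log2 change -1.54 ± 0.26, adjusted p = 0.0443). The lipase inhibitor Angptl4 was higher in both day 4 libraries (299 and 202 FPKM against 83.2, 114 and 80.4 FPKM) without passing (adjusted p = 0.0733). Of 19 tested cholesterol and fatty acid synthesis genes 0 were called (1.02% of all genes were). Of the 19, 16 had a negative log2 change (6677 of 11735 genes did), and the median was -0.23.

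Regulators of signalling inside the cell and receptors rose as single genes. Rgs2, which switches off Gq-coupled receptor signals, was at 14.5, 14.1 and 11.9 FPKM in the controls and 62.8 and 90.6 FPKM at day 4 (log2 change 2.40 ± 0.20, adjusted p = 0.00889). It was the only call among 10 tested regulators of G protein signalling (1.02% of all genes were called). Ttyh1, a membrane protein of the tweety family, was at 4.83, 4.63 and 6.04 FPKM and 93.3 and 56.7 FPKM (log2 change 3.59 ± 0.27, adjusted p = 0.00694). Map3k6, a kinase of the stress-activated MAP kinase cascades, was at 3.06, 5.39 and 3.22 FPKM and 35.5 and 22.2 FPKM (log2 change 2.60 ± 0.31, adjusted p = 0.0274). In each of the 3 genes the lowest day 4 library was above the highest control. Heyl, a Notch effector, went from 3.48, 2.54 and 2.70 FPKM to 6.80 and 10.2 FPKM (log2 change 1.26 ± 0.21, adjusted p = 0.0441). It was the only call of 10 tested Notch genes (1.02% of all genes were called). Hspb7, a small heat shock protein, went from 0.405, 0.327 and 0.534 FPKM to 3.46 and 3.38 FPKM (log2 change 1.64 ± 0.24, adjusted p = 0.0373), while its relative Cryab fell from 61.1, 59.8 and 59.6 FPKM to 25.9 and 22.3 FPKM (log2 change -1.29 ± 0.15, adjusted p = 0.0274). Hspb7 passed the filter only through knockout libraries. The other 14 tested heat shock genes were not called (1.02% of all genes were). Lower levels were measured for Cpne7, a calcium-dependent lipid binding protein (0.330, 1.48 and 0.779 FPKM to 8.22 and 12.4 FPKM), and for Mchr1, the receptor of melanin-concentrating hormone (0.665, 1.30 and 2.05 FPKM to 6.52 and 16.0 FPKM), which both rose.

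Glucocorticoid-responsive genes had 0 calls among 12 tested (1.02% of all genes were called) and a median of 0.07. Fkbp5, a co-chaperone of the glucocorticoid receptor, was nevertheless at 64.2 and 84.5 FPKM at day 4 and 7.88, 18.5 and 15.1 FPKM in the controls (adjusted p = 0.0532), and Tsc22d3 at 549.8 and 428 FPKM and 273, 156 and 158 FPKM (adjusted p = 0.103). Both genes were above all controls in both libraries and missed the threshold. The metal-binding protein gene Mt2 varied more, at 977 and 402 FPKM at day 4 and 67.4, 294 and 137 FPKM in the controls (adjusted p = 0.134). Over 22 tested immediate early genes, which respond to handling of cells, the median was 0.01 with 0 calls, and over 14 tested proliferation genes it was 0.02 with 0 calls (0.30 and -0.21 with replicates 1 and 2 alone).

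**Figure D4:**
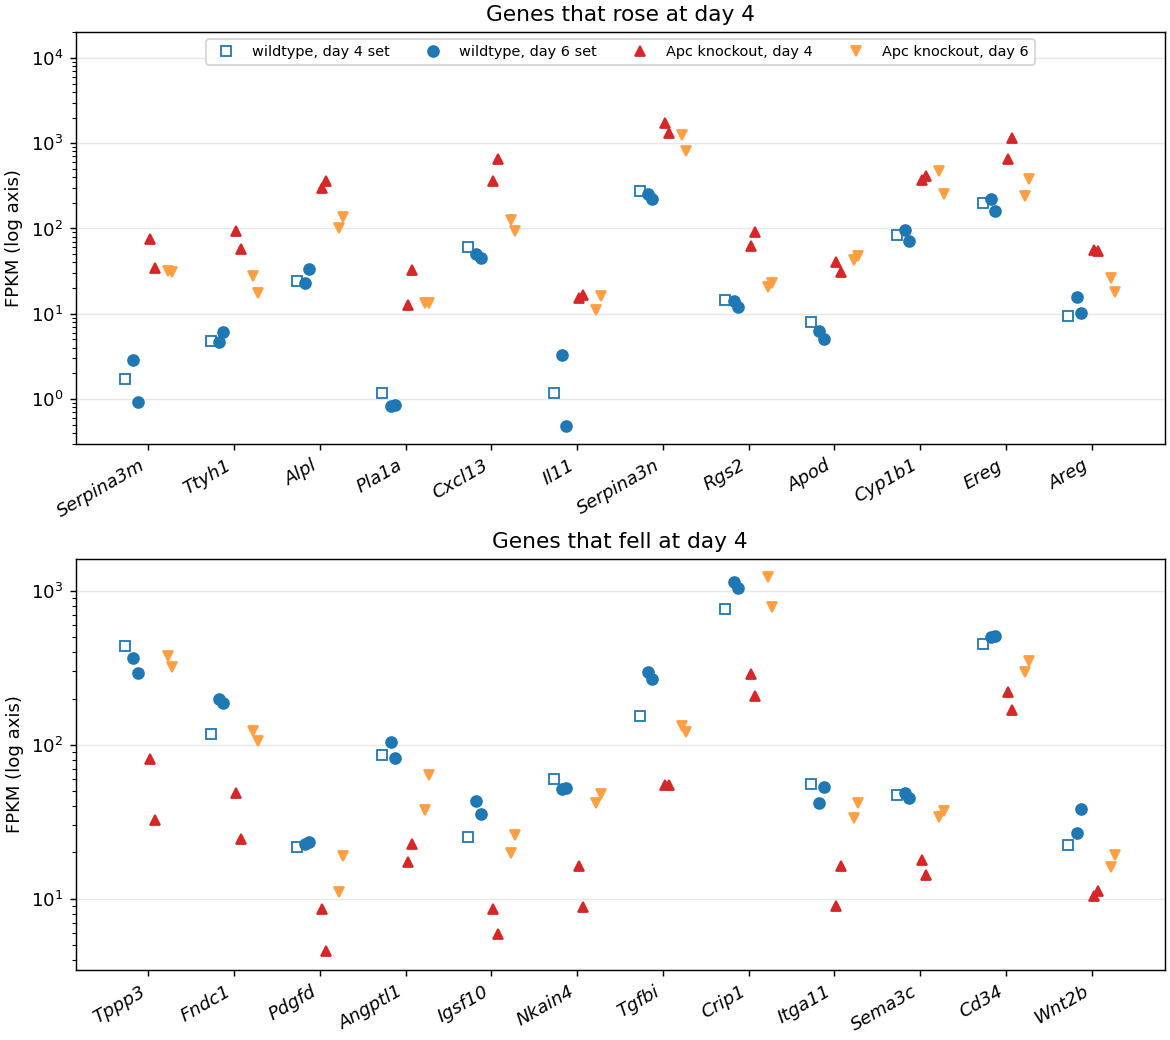
FPKM on a log axis of 12 genes that rose (top) and 12 that fell (bottom) in each library, with symbols for the control of the day 4 set, the controls of the day 6 set and the knockouts of each day. The day 4 knockouts (red) lie beyond all 3 controls for each gene, for example 296 and 363 FPKM of Alpl against at most 33.2 FPKM in the controls. The genes were taken from the calls, which largely fixes this.

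Matrix glycoproteins, proteoglycans and collagen genes had mostly negative log2 changes at day 4, with few single calls, while basement membrane and hyaluronan genes did not. The first lists had more members below all controls in both day 4 libraries than the 22% found over all genes: 19 of 31 tested matrix glycoprotein and elastic fibre genes, 11 of 18 proteoglycans, 13 of 18 collagen processing and crosslinking enzymes, 6 of 10 fibrillar collagens and 7 of 14 other collagens. Their median log2 changes were -0.80, -0.82, -0.54, -0.53 and -0.54, in the same order, against -0.06 for all genes. Calls, all of genes that fell, numbered 2, 1, 0, 1 and 1 (0.622% of all genes fell). Without the genes listed at 0 in the day 4 set control, the median was -0.89 over 7 fibrillar collagens, 6 of them below all controls, and -0.83 over 17 proteoglycans. For the glycoproteins the median was -0.77 with replicate 1 alone and -0.61 with replicate 2 alone, and for the collagen processing enzymes it was -0.55 with replicate 1 alone and -0.50 with replicate 2 alone. Of 13 tested basement membrane genes 0 were called (1.02% of all genes were), 8 had a positive log2 change and 3 lay below all controls. Their median of 0.06 had opposite signs in the 2 day 4 libraries (-0.41 and 0.37 with replicates 1 and 2 alone). The 8 tested hyaluronan genes had 0 calls and a median of 0.23.

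Igsf10, a secreted immunoglobulin domain protein, was at 25.1, 43.5 and 35.7 FPKM in the controls and 8.63 and 5.92 FPKM at day 4 (log2 change -2.10 ± 0.26, adjusted p = 0.0323). Fndc1, a secreted protein with fibronectin domains, was at 118, 198 and 188 FPKM and 48.3 and 24.4 FPKM (log2 change -2.22 ± 0.33, adjusted p = 0.0378). These were the 2 glycoprotein calls, with replicate 2 the lower library for both. Fbln5, needed to assemble elastic fibres, was at 84.4, 93.0 and 87.3 FPKM and 27.3 and 36.9 FPKM (adjusted p = 0.0623), and Tnxb, a tenascin that binds collagen, at 18.5, 23.2 and 29.0 FPKM and 9.74 and 10.5 FPKM (adjusted p = 0.0509). Both lay below all controls and missed the threshold. Gpc4, a cell surface heparan sulphate proteoglycan that binds growth factors, fell from 22.6, 30.3 and 25.2 FPKM to 11.2 and 12.6 FPKM (log2 change -1.06 ± 0.17, adjusted p = 0.0441). The small leucine-rich proteoglycan Aspn was at 371, 401 and 298 FPKM and 133 and 131 FPKM (adjusted p = 0.0532) and Podn at 68.9, 65.2 and 72.3 FPKM and 38.6 and 38.3 FPKM (adjusted p = 0.0509). Syndecan 1 (Sdc1) went against its list, at 25.7, 25.5 and 29.4 FPKM in the controls and 54.2 and 111 FPKM at day 4 (adjusted p = 0.0552).

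Among collagens, Col5a3, a chain of type V collagen, fell from 46.4, 47.0 and 76.1 FPKM to 14.7 and 16.2 FPKM (log2 change -1.77 ± 0.28, adjusted p = 0.0441). Its partner chain Col5a1 was at 178, 158 and 205 FPKM in the controls and 87.4 and 106 FPKM at day 4 and missed the threshold (adjusted p = 0.0808). Col6a5, a chain of type VI collagen, fell from 13.3, 19.2 and 18.8 FPKM to 3.51 and 3.60 FPKM (log2 change -1.97 ± 0.32, adjusted p = 0.0441). It was the 1 call among the other collagens. The collagen chaperone Serpinh1 was at 958, 1333 and 1301 FPKM and 425 and 514 FPKM (adjusted p = 0.0653), and the prolyl hydroxylase subunit P4ha1 at 51.5, 60.3 and 46.3 FPKM and 27.2 and 28.9 FPKM (adjusted p = 0.0532). Lox, which crosslinks collagen and elastin, was higher instead, at 123, 69.9 and 58.0 FPKM and 173 and 220.2 FPKM (adjusted p = 0.123). Itga11, a receptor subunit for fibrillar collagen, fell from 55.9, 42.0 and 53.3 FPKM to 9.03 and 16.4 FPKM (log2 change -1.95 ± 0.26, adjusted p = 0.0323), while the fibronectin receptor subunit Itga5 was higher without passing (33.5 and 57.6 FPKM against 14.0, 23.3 and 15.3 FPKM, adjusted p = 0.0982). Itga11 was the only call of 14 tested integrins (1.02% of all genes were called).

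Matrix proteases and their inhibitors moved in both directions. Of 27 tested members 3 rose and 1 fell, against 0.401% and 0.622% of all genes, with a median of 0.01. Among those that rose, Mmp8 and Adamts9 passed the filter only through knockout libraries. The collagenase Mmp8 was at 0.779, 0.0629 and 0.285 FPKM in the controls and 4.62 and 19.4 FPKM at day 4 (log2 change 2.99 ± 0.50, adjusted p = 0.0441), with the larger rise in replicate 2. Which cells made it was not tested. Adamts15, which cleaves aggrecan-type proteoglycans, went from 2.45, 1.86 and 4.06 FPKM to 24.0 and 10.6 FPKM (log2 change 2.21 ± 0.37, adjusted p = 0.0443), and Adamts9 from 0.977, 1.27 and 0.966 FPKM to 3.64 and 3.06 FPKM (log2 change 1.07 ± 0.19, adjusted p = 0.0483). Mmp23, a membrane-bound metalloprotease, fell from 100.5, 129 and 149 FPKM to 42.7 and 43.4 FPKM (log2 change -1.51 ± 0.20, adjusted p = 0.0323). The stromelysin Mmp3 (162, 204 and 178 FPKM in the controls and 418 and 531 FPKM at day 4, adjusted p = 0.0515) and the inhibitor Timp1 (17.9, 22.9 and 25.03 FPKM and 42.9 and 46.2 FPKM, adjusted p = 0.0509) were above all controls and just missed the threshold. Pappa, which cleaves IGF binding proteins, rose from 2.77, 2.85 and 2.69 FPKM to 10.1 and 16.1 FPKM (log2 change 1.87 ± 0.25, adjusted p = 0.0331), and Adamtsl2, an ADAMTS-like protein without protease activity, from 40.1, 17.3 and 40.1 FPKM to 134 and 146 FPKM (log2 change 2.16 ± 0.37, adjusted p = 0.0460).

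**Figure D5:**
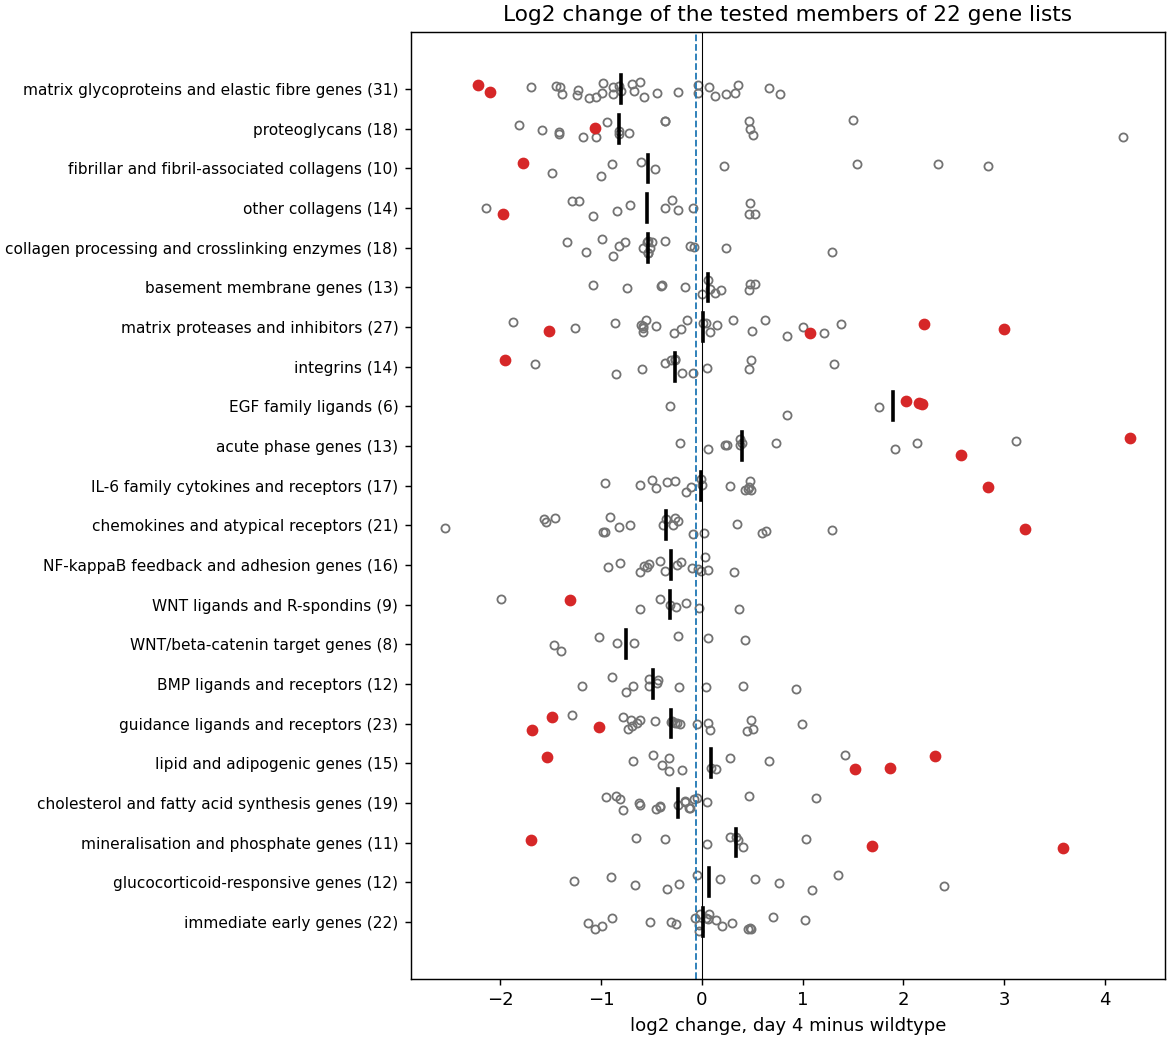
Log2 change from wildtype to day 4 (x axis) of each tested member of 22 gene lists, with the number tested in brackets, called genes filled in red, list medians as black bars and the median of all genes (-0.06) as a dashed line. The glycoprotein, proteoglycan and collagen lists lie to the left, basement membrane genes spread around 0 and EGF family ligands lie to the right, and the 4 open points at 1.54 to 4.18 among the fibrillar collagens and proteoglycans are genes listed at 0 in the day 4 set control.

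Secreted factors that fell included axon guidance genes and a PDGF ligand. Of 23 tested guidance ligands and receptors 3 fell (0.622% of all genes did) and 0 rose, and 11 lay below all controls (22% of all genes did). The median was -0.31 (-0.45 and -0.20 with replicates 1 and 2 alone). Sema3c was at 47.0, 48.4 and 45.0 FPKM in the controls and 17.9 and 14.4 FPKM at day 4 (log2 change -1.49 ± 0.16, adjusted p = 0.0186), the smallest adjusted p among the genes that fell. Sema3b went from 13.7, 10.9 and 13.5 FPKM to 3.78 and 2.75 FPKM (log2 change -1.69 ± 0.21, adjusted p = 0.0323) and Slit2 from 7.37, 7.48 and 8.34 FPKM to 3.84 and 2.80 FPKM (log2 change -1.02 ± 0.17, adjusted p = 0.0443). Semaphorins and slits repel growing axons and also act on vessels and epithelia. Pdgfd, a ligand of PDGF receptor beta, fell from 21.7, 22.5 and 23.4 FPKM to 8.56 and 4.55 FPKM (log2 change -1.69 ± 0.28, adjusted p = 0.0441). It was the 1 call of 17 tested FGF, HGF, IGF and related ligands (1.02% of all genes were called). No control overlapped a day 4 library in any of these 4 genes.

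Angptl1 and Angptl2, secreted proteins related to angiopoietins, fell from 86.0, 105 and 81.7 FPKM to 17.3 and 22.7 FPKM (log2 change -2.13 ± 0.25, adjusted p = 0.0274) and from 180.4, 149.7 and 179.7 FPKM to 33.4 and 70.1 FPKM (log2 change -1.78 ± 0.30, adjusted p = 0.0441). Tgfbi, a matrix protein induced by TGF-beta, was at 154, 297 and 269 FPKM in the controls and 55.0 and 55.0 FPKM at day 4 (log2 change -2.05 ± 0.28, adjusted p = 0.0332). The day 4 set control was the lowest control for Tgfbi, and still above both knockouts. The ligand gene Tgfb3 was at 92.2, 70.9 and 67.6 FPKM and 32.3 and 25.9 FPKM and just missed the threshold (adjusted p = 0.0515). Over 16 tested TGF-beta genes Tgfbi was the only call (1.02% of all genes were called) and the median was -0.07.

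The genes for which trophocytes are known mostly had negative log2 changes (8 of 11, against 6677 of 11735 genes). Dcn, listed at 0 in the day 4 set control, was among the 3 with a positive one. Of 11 tested trophocyte genes 2 fell (0.622% of all genes did), 0 rose and 5 lay below all controls (22% of all genes did). The median was -0.25 (-0.32 and -0.55 with replicates 1 and 2 alone) and -0.35 without Dcn. Cd34, a surface sialomucin used to mark these cells, was at 454, 506 and 509 FPKM in the controls and 220.2 and 169.5 FPKM at day 4 (log2 change -1.33 ± 0.21, adjusted p = 0.0413). Wnt2b, a canonical WNT ligand, was at 22.4, 26.8 and 38.2 FPKM and 10.5 and 11.3 FPKM (log2 change -1.31 ± 0.23, adjusted p = 0.0489), with its day 4 values close together and below the widely spread controls. Rspo2, an R-spondin that amplifies WNT signals, is not on the trophocyte list. It was at 14.6, 10.3 and 19.4 FPKM and 3.81 and 2.07 FPKM and missed the threshold narrowly (log2 change -1.99 ± 0.37, adjusted p = 0.0528). Of 9 tested WNT ligands and R-spondins, which include Rspo2, Wnt2b was the 1 that fell and 0 rose. Of these 9, 3 lay below all controls, and the median was -0.32 (-0.57 and -0.13 with replicates 1 and 2 alone). Rspo3 overlapped between groups, at 24.5, 24.7 and 26.2 FPKM and 17.3 and 29.1 FPKM (adjusted p = 0.761). Grem1, the BMP antagonist, was at 178, 195 and 164 FPKM and 143 and 101 FPKM, below the controls in both day 4 libraries without passing (log2 change -0.57 ± 0.29, adjusted p = 0.342).

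Genes that respond to WNT signals within a cell gave no call, which says little for so short a list. Of 8 tested WNT/beta-catenin target genes 0 were called (1.02% of all genes were). Of the 8, 5 lay below all controls (22% of all genes did), and the median was -0.75. The feedback inhibitor Nkd1 was at 11.8, 10.8 and 9.27 FPKM in the controls and 3.05 and 3.36 FPKM at day 4 (adjusted p = 0.0515), and the receptor gene Tnfrsf19 at 12.6, 10.1 and 10.9 FPKM and 3.39 and 3.87 FPKM (adjusted p = 0.0606). Shisa3, and its relative Shisa2, picked after its values were seen, hold back WNT and FGF receptors inside the cell, and both fell, from 96.6, 65.6 and 87.5 FPKM to 19.1 and 22.1 FPKM (log2 change -1.95 ± 0.27, adjusted p = 0.0334) and from 23.1, 18.8 and 21.0 FPKM to 4.88 and 7.55 FPKM (log2 change -1.63 ± 0.27, adjusted p = 0.0441). Of 9 tested adventitial fibroblast markers Sema3c fell (0.622% of all genes did) and 6 lay below all controls (22% of all genes did), with a median of -0.91. Clec3b, one of these markers, was at 425, 732 and 815 FPKM and 210.1 and 160.4 FPKM (adjusted p = 0.0509). Over 10 tested telocyte markers, genes of the Pdgfra-high neighbours of these cells, the median was 0.25 with 0 calls, and its sign differed between the day 4 libraries (-0.10 and 0.66 with replicates 1 and 2 alone).

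The largest fall among the 73 genes belonged to Tppp3, a tubulin-binding protein of fibroblast and tendon progenitors, which was at 439, 366 and 293 FPKM in the controls and 81.3 and 32.3 FPKM at day 4 (log2 change -2.79 ± 0.37, adjusted p = 0.0323). Crip1, a small LIM domain protein and the most abundant gene that fell, went from 762, 1152 and 1046 FPKM to 290.4 and 208 FPKM (log2 change -1.98 ± 0.30, adjusted p = 0.0413). Nkain4, which interacts with the sodium pump, went from 60.2, 51.5 and 52.8 FPKM to 16.4 and 8.82 FPKM (log2 change -2.09 ± 0.24, adjusted p = 0.0274). In all 3 genes day 4 replicate 2 was the lowest library. Wfdc1, a secreted protease inhibitor domain protein, fell from 64.4, 117 and 144 FPKM to 20.3 and 31.1 FPKM (log2 change -1.99 ± 0.34, adjusted p = 0.0443). Dmpk, the myotonic dystrophy kinase, fell from 21.9, 18.4 and 25.4 FPKM to 5.29 and 4.51 FPKM (log2 change -1.95 ± 0.30, adjusted p = 0.0413). It was the 1 call of 15 tested contractile genes (1.02% of all genes were called). Glrb, the glycine receptor beta subunit (log2 change -1.97 ± 0.25, adjusted p = 0.0323), P2rx6, a subunit of ATP-gated channels (log2 change -1.81 ± 0.30, adjusted p = 0.0441), and Qpct, an enzyme that modifies the ends of secreted peptides (log2 change -1.72 ± 0.23, adjusted p = 0.0323), also fell. Stbd1, which tethers glycogen, fell from 46.5, 62.2 and 62.1 FPKM to 15.3 and 17.5 FPKM (log2 change -1.73 ± 0.24, adjusted p = 0.0334).

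Of the 120 called genes, 57 lay outside the naming rule, and the following were picked from these after their values were seen. Echs1, a mitochondrial enzyme of fatty acid oxidation, rose from 24.9, 21.4 and 24.3 FPKM to 45.5 and 56.5 FPKM (log2 change 1.08 ± 0.16, adjusted p = 0.0398). Ripk3, the kinase of necroptosis, rose from 2.49, 2.05 and 2.09 FPKM to 5.51 and 5.94 FPKM (log2 change 1.07 ± 0.16, adjusted p = 0.0413). Both genes were above every control in both day 4 libraries. Pygm, a glycogen phosphorylase, fell from 14.9, 20.4 and 21.3 FPKM to 8.37 and 6.89 FPKM (log2 change -1.19 ± 0.20, adjusted p = 0.0443), and Irs1, an adaptor of insulin and IGF1 receptors, from 3.32, 4.63 and 4.54 FPKM to 1.27 and 1.13 FPKM (log2 change -1.22 ± 0.19, adjusted p = 0.0413). Colgalt2, which glycosylates collagen, fell from 4.96, 5.47 and 4.92 FPKM to 1.14 and 1.12 FPKM (log2 change -1.52 ± 0.22, adjusted p = 0.0358). No overlap between groups was seen for these genes, which their calls largely fix.

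Levels at day 6 are given beside those at day 4, using the same 3 controls for both. No gene passed in the direct comparison of day 4 with day 6 knockouts (0%), where 1345 genes had an unadjusted p under 0.05 by limma and the smallest adjusted p was 0.196. Some genes stood much higher at day 4 than at day 6. Cxcl13 was at 362 and 658 FPKM at day 4 and 125 and 92.4 FPKM at day 6 (adjusted p = 0.242), Rgs2 at 62.8 and 90.6 FPKM and 20.5 and 22.9 FPKM (adjusted p = 0.196) and Ereg at 658 and 1157 FPKM and 241 and 383 FPKM (adjusted p = 0.271). Kcnip3, a calcium-binding channel subunit picked after its values were seen, was at 9.45 and 10.3 FPKM at day 4, 3.45 and 3.59 FPKM at day 6 and 3.88, 4.38 and 4.83 FPKM in the controls. Other genes had overlapping or close values on both days: Il11 at 15.5 and 16.6 FPKM and 11.2 and 16.0 FPKM, Cyp1b1 at 371 and 417 FPKM and 477 and 253 FPKM, and Apod at 40.9 and 30.6 FPKM and 43.2 and 47.2 FPKM.

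Among the genes that fell, Tppp3 was at 81.3 and 32.3 FPKM at day 4 and 379 and 319 FPKM at day 6, Crip1 at 290.4 and 208 FPKM and 1228 and 793 FPKM, and Slit2 at 3.84 and 2.80 FPKM and 8.77 and 7.88 FPKM. The day 6 values of these 3 genes were in or near the range of the controls. Wnt2b was at 10.5 and 11.3 FPKM at day 4 and 16.1 and 19.2 FPKM at day 6, still under the lowest control. Both day 6 libraries lay above all 3 controls for 44 of the 47 genes that rose. They lay below all 3 for 47 of the 73 that fell. The log2 change at day 6 kept its sign for 45 and 68 genes, in the same order. Both days share these controls, so these counts are not independent of the choice of genes. The matching day 6 shares over all genes are not given here, so these counts do not measure how far the changes lasted. For all 73 genes that fell, both day 4 libraries were below both day 6 libraries, and for 30 of the 47 that rose they were above them. Over all genes tested these orders were found for 27.2% and 15.3%. The genes had been chosen on the same day 4 libraries, which largely fixes these counts. Grem1 was at 143 and 101 FPKM at day 4 and 501 and 267 FPKM at day 6, and this difference did not pass (adjusted p = 0.257). The day 4 and day 6 knockouts also differ in set, so day and set cannot be told apart in these differences.

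Several lists of other functions had 0 calls at day 4, which says little about lists of this size when 1.02% of all genes were called. The median was 0.10 over 21 tested glycolysis genes (0.14 and 0.26 with replicates 1 and 2 alone). Over 20 genes of the unfolded protein and integrated stress response it was -0.06, with opposite signs in the 2 day 4 libraries (0.36 and -0.34 with replicates 1 and 2 alone). It was 0.08 over 13 p53 target genes and 0.05 over 11 YAP target genes. The median of all genes was itself -0.14 with replicate 1 alone and 0.01 with replicate 2 alone. BMP ligands and receptors (12 tested, 0 called) had a median of -0.48 and BMP antagonists (11 tested, 0 called) one of 0.01 (-0.18 and -0.10 with replicates 1 and 2 alone). Of the 12 BMP ligands and receptors, 7 lay below all controls and 1 above them (22% and 12.5% of all genes did). Antigen presentation genes (19 tested, 0 called) had a median of -0.52, which was -0.35 with replicate 1 alone and -0.60 with replicate 2 alone. Of these 19, 17 had a negative log2 change (6677 of 11735 genes did), 8 lay below all controls and 0 above them. The peptide loading gene Tapbp was at 212, 268 and 253 FPKM in the controls and 147 and 95.8 FPKM at day 4 (adjusted p = 0.0973). Cd74, the class II invariant chain, was at 317, 513 and 307 FPKM and 654 and 21.9 FPKM, far lower in replicate 2 than in any control and higher in replicate 1, as were the immune cell markers, whose part in these values was not tested.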

How the data were processed

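The authors deposited FPKM values in 1 table with a column per library. Per the submitters' processing notes, kallisto 0.46.1, DESeq2 1.40.1 and the mm9 build were used, with no role named, so how FPKM was made is not given in the sources used here. The table held 25493 entries, with 293 repeated symbols, of which the entry of highest mean was used, leaving 24908. Of these, 24831 matched mouse gene symbols of the reference, 59 of them through older symbols, and 77 did not match. Control columns could not be tied to numbered control titles. An undated knockout column was taken as the second day 6 library, the only sample left for it.

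From the deposited FPKM, log2(FPKM + 1) was computed. The genes tested had 1 FPKM or more in 2 or more libraries. The test was limma 3.58.1 (R 4.3.3), 1 mean per group over 7 libraries, 4 residual degrees of freedom and an intensity trend (3.78 prior degrees of freedom). Tests were two-sided, with Benjamini-Hochberg adjustment over 11735 genes at 0.05. The script was tested on simulated data. The values used are not counts, so no counting intervals are given. SE comes from the model.

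The members, the 67 gene lists and the naming rule were chosen with earlier results of these data known. The rule names Wnt2b, Rspo3, Grem1, Cd81, Pdgfra and Apc, up to 25 called genes per direction with the largest change, no overlap between groups and a mean of at least 3 FPKM, and in each list the called members and up to 4 more with the smallest p. It also names up to 8 genes per direction for day 4 against day 6, cell type markers, Gapdh, Ddx3y and Xist, and close paralogs. Some genes it names are not reported here. Promoter windows are RefSeq sequences on GRCm38.p6. Alternatives covered the pseudocount, filter, scaling, zeros, trend, a Ddx3y covariate, the libraries in the fit and each library left out.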

Additional observations from a re-analysis of the deposited data

How the results depend on the processing

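The count of 120 genes called at day 4 became 5 against the day 4 set control alone, 68 with 5 libraries in the fit, 58 with a pseudocount of 5, 71 without an intensity trend, 26 with Ddx3y as a covariate and 0 with no filter on low values (18257 genes tested, 2592 with an unadjusted p under 0.05). Leaving out 1 library gave 2 to 474 calls. It was 119 with a pseudocount of 0.1, 156 with a filter at 5 FPKM, 136 with trimmed mean scaling, 160 with quantile normalization and 159 with zeros set missing. All 120 genes kept their direction in every alternative, and the 110 that passed the stricter filter kept it there. The genes had been chosen on the same libraries, which largely fixes their direction, also in the refits without 1 library. The comparison of day 4 with day 6 knockouts went from 0 calls to 3 with zeros set missing and to between 0 and 83 with 1 library left out, the highest without the day 4 set control. Of the genes named in the text and refitted under each alternative, 4 without a call changed sign. Col1a1, Col1a2, Col3a1, Dcn, Ddx3y and H2-Q2 are not among those refitted. The log2 change of Hbegf, -0.31, was 0.0527 with the Ddx3y covariate, and with 1 library left out ranged from -1.17 to 0.55, above 0 without the first day 6 set control or day 4 replicate 2. That of Rspo3, -0.15, ranged from -0.52 to 0.21, above 0 without day 4 replicate 1. Without day 4 replicate 2, Cd74 went from -1.59 to 0.83 and Ptprc from -0.52 to 0.79, and without replicate 1 they were at -4.01, past the threshold (limma adjusted p = 0.00728), and -1.84. The causes of these moves were not tested. No paired analysis was possible because the control columns carry no replicate number that ties them to a numbered title. The table gives no read counts, so the precision of low values is unknown.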
